A study of Mus musculus with 12 samples.

Results

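The miR-3473 family is a set of mouse microRNAs (miRNAs) that share a name and, for most of them, a stretch of sequence. Its rows were taken by name alone, as every row of the deposited count table that begins with mmu-miR-3473 and a letter. This gave 8 of the 1549 rows, namely miR-3473a, b, c, d, e, f, g and h-5p. The family had been selected on its counts in these libraries, with mmu-miR-3473b, mmu-miR-3473e and mmu-miR-3473f, which were high in A129-17, singled out. All levels and differences of the family are therefore given as a description, with standard errors (SE) and spreads but with no p-value for a member or for the family sum.

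A miRNA is a short RNA, cut from a hairpin precursor, that guides Argonaute proteins to messenger RNAs through its seed, the bases near its 5′ end. miR-3473b is best known from mouse macrophages and microglia, where it has been studied in inflammatory responses.

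Small RNA was sequenced from wild-type mouse cells that had all been collected by sorting. The 3 androgenetic haploid embryonic stem cell (ESC) lines, which carry a single paternal chromosome set, were A129-17 (2 libraries), A129-6 (3) and A129-2 (2). The diploid ESC line R1 was represented by 2 libraries and round spermatids (RS), haploid germ cells from testes of 129Sv males, by 3. The haploid lines were kept in medium with LIF and the kinase inhibitors of 2i, and were periodically re-sorted for haploid cells. Replicates were separate sorts, but separate cultures or animals are not stated, so an SD here can be technical spread. Only 1 diploid line was sequenced.

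The ESC libraries held between 3709786 and 9176080 counts, and the RS libraries between 155232 and 243714. A level is given as CPM, the count scaled to a common library total of 1e+06, with an exact Clopper-Pearson 95% interval that covers counting error only. The whole family took at most 0.0146% of the counts of any library. The mature sequences below were read from RefSeq (GRCm38.p6), which held all 8, and are shown because they decide which reads can be told apart. Capitals mark the seed, bases 2 to 8 from the 5′ end.
miR-3473b: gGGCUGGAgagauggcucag
miR-3473e: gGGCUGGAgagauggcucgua
miR-3473a: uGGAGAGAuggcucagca
miR-3473f: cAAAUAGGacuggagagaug
miR-3473g: cAAAAGUGaggcuggggaga
miR-3473h-5p: uAGGGGCUggaaaggugacu
miR-3473c: uCUCUCCAgcccccauaauaag
miR-3473d: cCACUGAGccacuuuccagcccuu

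The name covers 7 seeds. Only miR-3473b and miR-3473e share one, and no other mouse miRNA in the RefSeq table has that seed. Outside the family, miR-882 shares the seed of miR-3473a, miR-7649-3p that of miR-3473c, and miR-1947-3p and miR-674-5p that of miR-3473d. miR-3473b and miR-3473e are identical over their first 18 bases and differ only after them, so a read trimmed to those bases fits both. miR-3473a matches bases 5 onward of miR-3473b over 16 bases, which puts its seed at another place in the same sequence. miR-3473f ends in 11 bases of miR-3473b that stand outside its own seed. The longest exact runs shared with miR-3473b were 8 bases in miR-3473h-5p and 6 in miR-3473g. miR-3473c and miR-3473d match the other strand, as the reverse complement of miR-3473b over 12 and 8 bases. As a seed family the set is therefore 1 pair and 6 single sequences, although the shared name is kept here.

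The sequence of the pair is common in mouse transcripts. The first 18 bases, GGGCTGGAGAGATGGCTC, or their reverse complement occurred exactly in transcripts of 825 of 53147 GENCODE M21 genes, miRNA genes left out, or 1.55%. The match lay on the transcript's strand in 401 genes and on the other strand in 438. The same letters were found in 38 of 32851 promoter windows of 300 bases, or 0.116%. Of 1672 mature sequences compared in this way, 7 matched at least 100 genes, and miR-3473b, miR-3473e and miR-3473a were 3 of these. The median mature sequence matched 0 genes. miR-3473a matched 281 genes, miR-3473c 2 genes, and miR-3473d, f, g and h-5p matched 0. The treatment of reads with several matches is not given in the sources used here, and counts of miR-3473a, b and e are uncertain as to their locus.

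**Figure D1:**
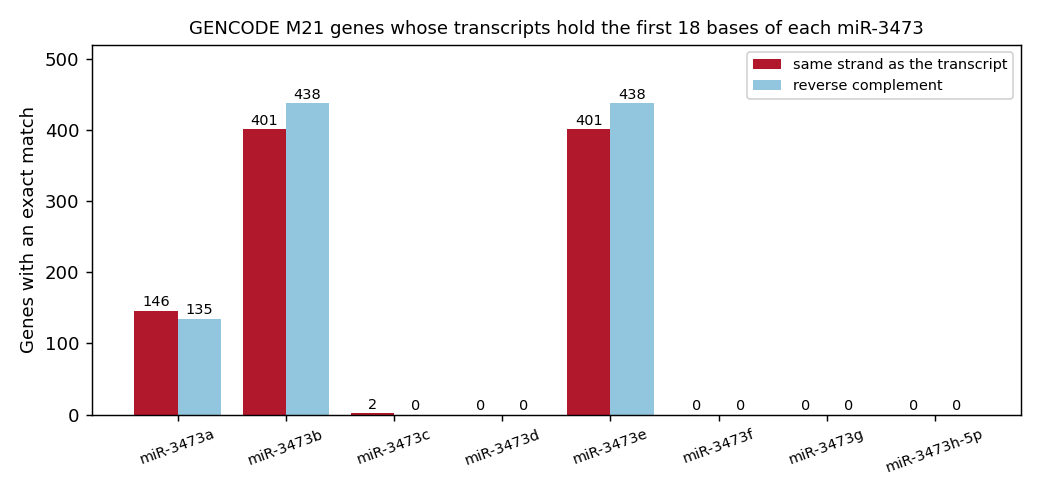
Number of GENCODE M21 genes (vertical axis) whose transcripts hold the first 18 bases of each miR-3473 exactly, on the transcript's strand (red) or as the reverse complement (light blue). miR-3473b and miR-3473e share these bases and reach 401 and 438 genes, miR-3473a 146 and 135, miR-3473c 2 and 0, and the other members 0.

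The annotated hairpin of miR-3473b is a near-perfect inverted repeat and is shown for that reason, with its 2 complementary arms in capitals.
Mir3473b hairpin: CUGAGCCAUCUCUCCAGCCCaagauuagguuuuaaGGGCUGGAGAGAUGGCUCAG
Its arms paired without a break over 20 bases, the whole of the mature sequence. Among 1005 RefSeq mouse hairpins 1.49% held an exact inverted repeat of at least this length, and the median was 7 bases. The hairpin of miR-3473f held 17 paired bases in a row, those of miR-3473c and d 12, of a 11, of e 8 and of g 6.

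The annotated loci are scattered, with no shared cluster. In GRCm38 coordinates, miR-3473b lies on chromosome 10 (41670774 to 41670793, plus strand) within an intron of Ccdc162, which runs the other way. miR-3473e lies on chromosome 5 (31667296 to 31667316, minus strand) in an intron of Rbks, and miR-3473f on chromosome 1 (106546536 to 106546555, minus strand) in an intron of Bcl2, the gene of an anti-apoptotic protein. The others lie in introns of Syap1 on the X chromosome (a), Ddx19b on chromosome 8 (d), Sppl2a on chromosome 2 (g) and the gene model Gm43191 on chromosome 3 (h-5p), and in an exon of Traf5 on chromosome 1 (c). Because the sequence of a, b and e recurs in many genes, their counts need not come from these loci.

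miR-3473b was the most abundant member in every ESC library. It stood at 104 (95% interval 96.6 to 112) and 118 CPM (109 to 128) in A129-17, from 717 and 662 counts. A129-6 gave 25.0, 30.4 and 15.4 CPM. The A129-2 libraries stood far apart, with 69.5 (61.3 to 78.6) in replicate 1 and 8.02 CPM (6.29 to 10.1) in replicate 2. R1 had 8.25 and 15.4 CPM. Both A129-17 libraries were thus above every other library, A129-6 and R1 met at 15.4 CPM, and A129-2 spanned nearly the whole range below A129-17. The order of the group means was A129-17, A129-2, A129-6, R1, but only A129-17 stood clear of its neighbours.

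miR-3473e, which shares the seed of b, was also highest in A129-17, at 7.11 (5.26 to 9.40) and 15.9 CPM (12.8 to 19.5). A129-6 had 3.05, 0.954 and 1.37 CPM, A129-2 had 3.23 and 0.439, and R1 had 1.97 and 3.27. The A129-17 libraries did not overlap with any other ESC group, and the other 3 groups overlapped with each other. In pooled counts miR-3473e was lower in A129-2 than in R1 (16 counts against 45, ratio 0.466, interval 0.246 to 0.841), while miR-3473b was higher (331 against 204, ratio 2.13, interval 1.78 to 2.55). These intervals cover counting error only, and for both miRNAs the libraries of A129-2 and R1 overlapped.

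miR-3473f, whose seed is its own, had 13 and 18 counts in A129-17 (1.89 and 3.21 CPM). In A129-6 it had 11, 6 and 7 counts (1.53, 0.954 and 0.961 CPM), in A129-2 it had 0 in both libraries, and in R1 it had 0 and 1. A129-17 and A129-6 therefore held nearly all of its counts, and both A129-17 libraries were above those of A129-6, though with overlapping counting intervals. Against A129-2, where a floor of 3 counts over the group corresponds to 0.234 CPM, the pooled level in A129-17 was at least 10.6-fold higher. Against R1 the ratio of pooled counts, 31 to 1, was 41.7 (interval 6.95 to 1700).

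On CPM of total counts the remaining members did not single out A129-17. miR-3473a ranged from 3.48 to 4.28 CPM in A129-17, 0.137 to 2.36 in A129-6, 0.879 to 4.58 in A129-2 and 1.05 to 1.42 in R1, so A129-2 replicate 1 was above both A129-17 libraries. miR-3473h-5p was at 2.86 to 6.53 CPM in A129-17, 0.687 to 4.44 in A129-6, 6.26 to 8.63 in A129-2 and 0.917 to 2.29 in R1, with its highest library in A129-2. On the normalised scale described below, its highest library was A129-17 replicate 1, at 8.62 CPM. There A129-17 replicate 2 stood at 3.11 CPM and A129-2 at 6.25 and 6.53. miR-3473d, of the other strand, had its lowest library and lowest group mean in A129-17, though A129-6 replicate 1 lay between the A129-17 libraries. A129-17 had 1.60 and 0.714 CPM, A129-6 had 0.971, 2.86 and 1.79, A129-2 had 4.31 and 2.64, and R1 had 3.28 and 3.27. The pooled ratio of A129-17 to R1 for miR-3473d was 0.367 (interval 0.193 to 0.659).

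Both rarest members stayed near the limit of detection. For miR-3473g, A129-17 had 5 and 7 counts, A129-6 had 0, 1 and 0, A129-2 had 1 and 9, and both R1 libraries had 0. miR-3473c had at most 4 counts in any library and 7 in all. The 95% upper limit that a count of 0 in R1 allows was 0.402 to 0.483 CPM.

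**Figure D2:**
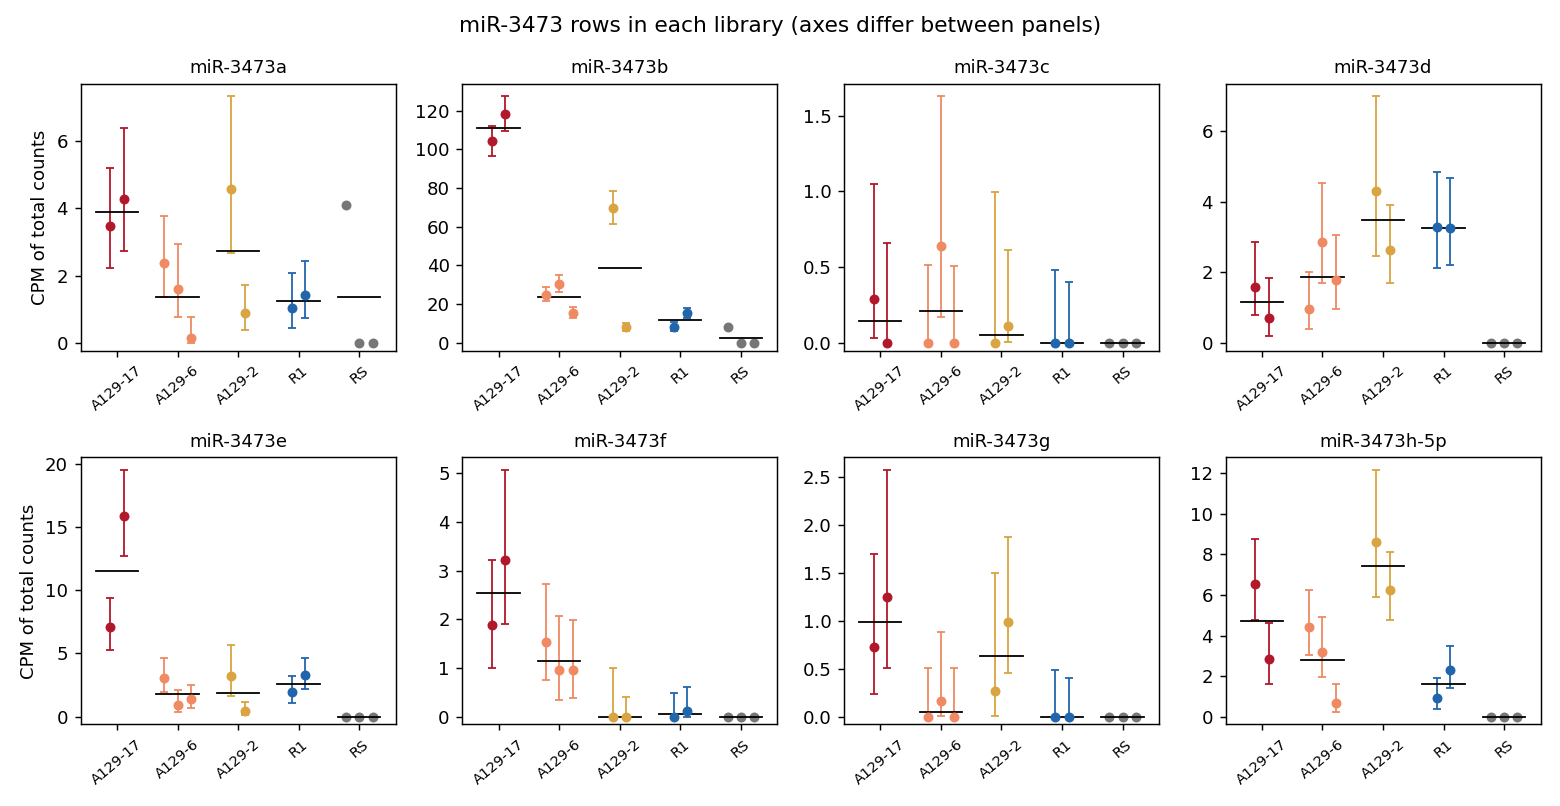
CPM of total counts (vertical axis, a different scale in each panel) of the 8 miR-3473 rows in each library of A129-17, A129-6, A129-2, R1 and RS. Points are libraries, bars on the ESC points are exact 95% counting intervals and black lines are group means, and RS intervals are not drawn because they would reach 15.1 CPM or more. Both A129-17 libraries stand above all others for miR-3473b (104 and 118 CPM), e (7.11 and 15.9 CPM) and f (1.89 and 3.21 CPM).

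The make-up of the family differed between libraries, a measure that does not depend on scaling. miR-3473b took 82.8% and 80.7% of the family counts in A129-17. For A129-6 the share was 66.9%, 74.6% and 75.7%, for A129-2 it was 76.8% and 41.5%, and for R1 53.4% and 59.7%. Its share was thus highest in A129-17 and lowest in A129-2 replicate 2, where miR-3473h-5p took 32.4% (interval 25.5 to 39.8) of 176 counts. miR-3473d took 1.27% and 0.488% in A129-17, while A129-6 ranged over 2.60% to 8.78%, A129-2 showed 4.76% and 13.6%, and R1 showed 21.2% and 12.7%. Shares add up to the whole, so a larger share of miR-3473b leaves less for miR-3473d. The fitted log2 difference of miR-3473d in A129-17 from A129-2 and A129-6, described below, was -0.71 (SE 0.74).

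Within the pair that shares a seed, the share of miR-3473e was not constant. It made up 6.40% (interval 4.77 to 8.37) and 11.9% (9.63 to 14.4) of the counts of b and e in A129-17. A129-6 showed 10.9%, 3.05% and 8.20%, and A129-2 showed 4.44% and 5.19%. In R1 it was 19.2% (11.2 to 29.7) and 17.5% (12.2 to 24.1), so both R1 libraries were above every haploid library, though their intervals overlapped with those of A129-17 replicate 2 and of 3 other haploid libraries.

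**Figure D3:**
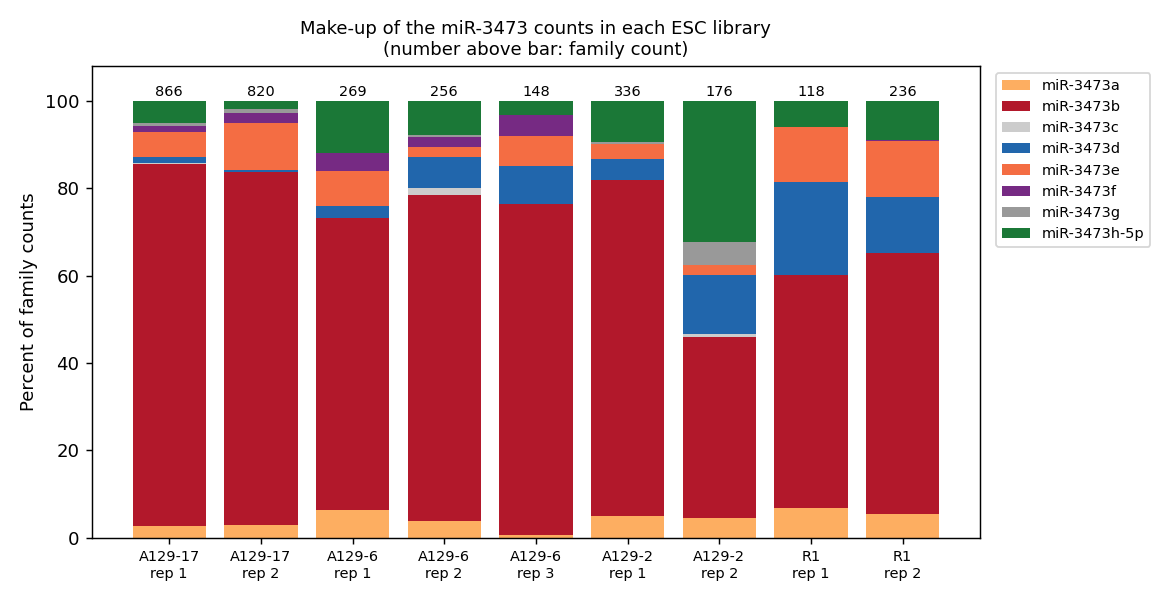
Percent of the family's counts (vertical axis) taken by each member in the 9 ESC libraries, with the family count above each bar. miR-3473b fills 82.8% and 80.7% in A129-17 and 53.4% and 59.7% in R1, and A129-2 replicate 2 stands apart with 41.5%.

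The difference of A129-17 from the mean of A129-2 and A129-6 was estimated with edgeR's quasi-likelihood fit on the 9 ESC libraries, scaled by TMM, a method that corrects for differences in library make-up. The values in this paragraph are fitted log2 differences. The family sum was higher in A129-17 by log2 2.14 (SE 0.36), a 4.41-fold difference, against a median of -0.02 over all 757 tested miRNAs. On the normalised scale A129-17 had a sum of 163 ± 4.62 CPM (SD, n = 2), A129-6 one of 32.2 ± 2.84 (n = 3) and A129-2 one of 42.9 ± 32.1 (n = 2). miR-3473b differed by 2.35 (SE 0.45) and miR-3473e by 3.09 (SE 0.61). miR-3473a stood at 1.51 (SE 0.75), miR-3473h-5p at 0.52 (SE 0.62) and miR-3473d at -0.71 (SE 0.74). miR-3473f has no fitted value because a group was at 0, and its pooled ratio of A129-17 to both other lines was 3.47 (interval 1.97 to 6.18). miR-3473c and miR-3473g did not pass the filter on low counts and were not tested.

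Of the 6 members tested, 2 passed an adjusted p of 0.05 in this comparison, miR-3473b and miR-3473e, both higher, beside 1.45% of all tested miRNAs (11 of 757), of which 1.32% were higher and 0.132% lower. Since the members were chosen with these values known, nothing is read from that count. The call of miR-3473b was lost with total-count scaling and without A129-6 replicate 2. That of miR-3473e was lost in both of these and also without A129-2 replicate 2 or A129-17 replicate 2. miR-3473f did not pass in the main fit, but passed in 2 of 7 other settings, without a filter and with the replicate number as a block. It also passed without A129-6 replicate 3. Without A129-2 replicate 1 the log2 difference was 3.23 for b and 3.81 for e, and with total-count scaling 1.88 and 2.72. Both A129-17 libraries were above every other ESC library in 4 of the 6 members on the normalised scale (a, b, e and f), beside 7.66% of tested miRNAs. On CPM of total counts this held for 3, which were b, e and f, beside 4.49% of tested miRNAs.

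Depth did not set A129-17 apart, with 6889407 and 5603025 counts. Its TMM factors, 0.758 and 0.918, were below those of the other haploid libraries except A129-6 replicate 3 (0.701), and its share of counts in miR-292a-5p, the leading miRNA of these ESC, was 56.5% and 50.7%, against 35.6% to 56.9% in the other haploid libraries. For miRNAs within 5 percentage points of the GC content of miR-3473b (65.0%), of which 106 were tested, the median log2 difference was 0.29. Summed levels of 5 mesenchymal markers were 7275 and 12388 CPM in A129-17, within the 5857 to 26767 CPM of the other haploid libraries, and those of 8 blood and endothelial markers were 369 and 873 CPM, against 429 to 872 CPM. The part of these measures in the difference was not tested. In bulk RNA, more cells with a miRNA and more of it per cell cannot be told apart.

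Between A129-6 and A129-2 no tested member passed, and on CPM of total counts their libraries overlapped for all members but miR-3473f, miR-3473g and miR-3473h-5p. Of these, g and h-5p were higher in both A129-2 libraries than in any of A129-6. For g this rests on 1 and 9 counts against 0, 1 and 0. The share of all miRNAs without overlap between these lines was not computed, so nothing is read from this lack of overlap. The family sum differed by log2 -0.40 (SE 0.42), miR-3473b by -0.32 (SE 0.53), miR-3473e by 0.48 (SE 0.80), miR-3473a by -0.69 (SE 0.88), miR-3473d by -0.61 (SE 0.73) and miR-3473h-5p by -1.29 (SE 0.68). The count was 0 of 6 in the edgeR fit and 0 with DESeq2, beside 2.38% of all tested miRNAs (1.85% higher, 0.528% lower). Over all miRNAs 103 had an unadjusted p under 0.05, and DESeq2 called 42. The sign depended on 1 library, since without A129-2 replicate 1 the difference was 0.67 for the sum and 1.47 for miR-3473b. That library had the lowest ESC depth, and its mesenchymal markers summed to 26767 CPM against 6685 in A129-2 replicate 2. Their part was not tested. miR-3473f had 24 counts in A129-6 and 0 in A129-2.

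Against diploid R1, the mean of the 3 haploid lines was higher for the family sum by log2 1.70 (SE 0.42), a 3.24-fold difference. The sum was at 79.3 ± 72.4 normalised CPM in the haploid lines (SD of 3 line means) and 19.0 ± 6.06 in R1 (n = 2). miR-3473b was higher by 2.04 (SE 0.53), with 61.9 ± 61.7 normalised CPM against 10.9 ± 4.28 in R1, and miR-3473h-5p by 1.62 (SE 0.68). miR-3473a stood at 0.99 (SE 0.81), miR-3473e at 0.39 (SE 0.64) and miR-3473d at -0.59 (SE 0.62). The SD over the line means was about as large as the mean, and A129-17, at 133 ± 6.15 normalised CPM of miR-3473b (n = 2), was the line that stood highest. In pooled counts miR-3473b was 9.10-fold higher than R1 in A129-17 (interval 7.85 to 10.6), 1.92-fold in A129-6 (1.62 to 2.27) and 2.13-fold in A129-2, where 258 of the 331 counts came from replicate 1. Without that library the fitted log2 difference of miR-3473b from R1 was 1.43, and with all 12 libraries fitted together it was 2.86.

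Of the 6 tested members, 2 passed against R1, both higher (b and h-5p), beside 70.5% of all tested miRNAs (35.3% higher and 35.3% lower), and nothing is read from that count. For no tested member was every haploid library above both R1 libraries, beside 34.7% of tested miRNAs. The call of miR-3473h-5p was lost with RLE or total-count scaling, with DESeq2 and in 7 of 9 fits that left out 1 library. The 106 miRNAs of similar GC content had a median log2 difference from R1 of 1.96, and 58 of them were called higher. Relative to miRNAs of the members' GC content, the family sum stood at -0.05. The mesenchymal and blood markers summed to 5857 to 26767 and 369 to 873 CPM in the haploid libraries, and to 13392 to 15296 and 712 to 750 CPM in R1. The part of GC content and of these cell types was not tested. The A129-17 difference was 1.90 on the same footing.

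**Figure D4:**
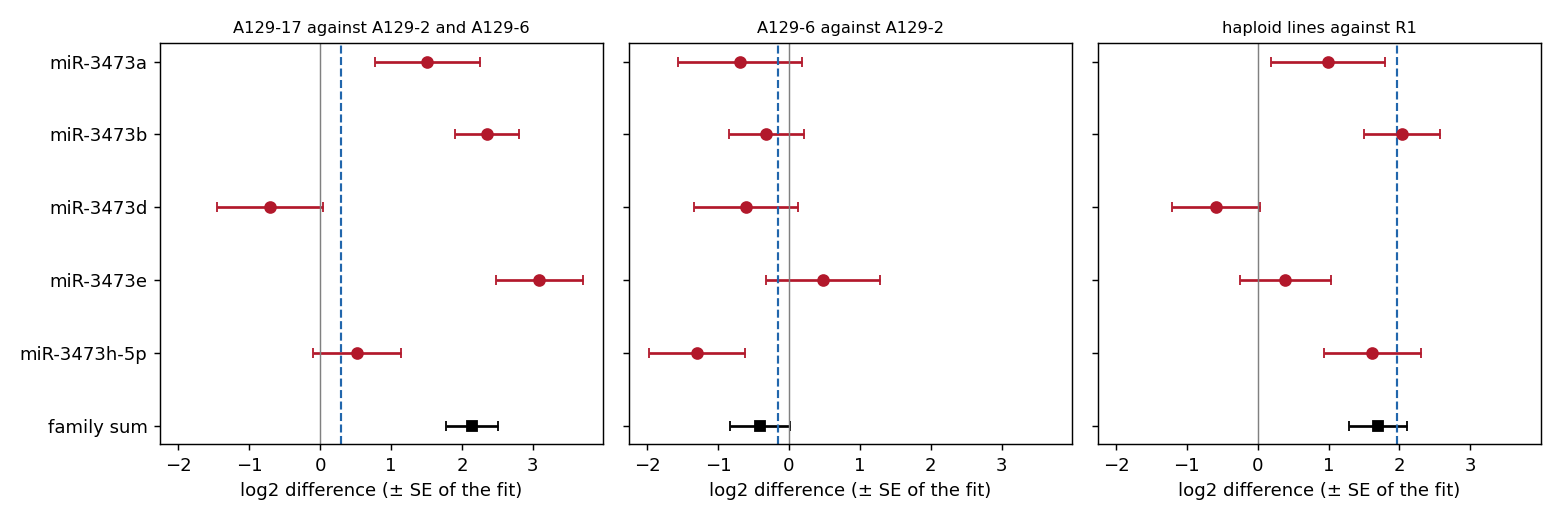
Fitted log2 differences (horizontal axis, bars ± 1 SE of the fit) of the tested miR-3473 members and of the family sum, for A129-17 against A129-2 and A129-6, A129-6 against A129-2, and the haploid lines against R1. The grey line marks 0 and the dashed blue line the median of 106 miRNAs with a GC content like that of miR-3473b (0.29, -0.16 and 1.96). miR-3473f is left out because a group was at 0 counts.

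The RS libraries held almost no miR-3473 reads, at a depth that could show only the highest ESC levels. The family had 3 counts in RS replicate 1, of which 2 were miR-3473b and 1 miR-3473a, and 0 in replicates 2 and 3. For a library with 0 counts the 95% upper limit was 23.8 and 22.1 CPM, above the level of every member other than b in any ESC library. Pooled, the sum was at 62.3 CPM in the haploid lines and 5.30 in RS, a ratio of 11.7 (interval 4.02 to 57.0). It was 25.4 for A129-17 (8.69 to 124), 6.11 for A129-6 (2.08 to 29.7), 7.53 for A129-2 (2.56 to 36.7) and 3.97 for R1 (1.35 to 19.3). Each interval covers counting error in 3 RS counts that came from 1 library.

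For miR-3473b the pooled ratio to RS was 31.2 (8.63 to 258) in A129-17 and 3.43 (0.938 to 28.5) in R1. miR-3473e was at least 2.08-fold higher in A129-17 than the floor of 3 counts over all RS libraries (5.30 CPM), and its levels in A129-6, A129-2 and R1 were below that floor. The edgeR fit of all 12 libraries gave log2 5.20 (SE 0.70) for the sum in the haploid lines against RS and 2.70 (SE 0.84) in R1 against RS. With upper-quartile and total-count scaling these were 3.66 and 3.60 for the haploid lines and 1.71 and 2.00 for R1. Without R1 replicate 1 the difference of R1 was 3.88. Of 6 tested members 4 passed for the haploid lines, all higher, beside 65.4% of tested miRNAs (44.5% higher, 20.8% lower). For R1 it was 0, beside 53% (33.6% higher, 19.4% lower), and nothing is read from either count. In R1 miR-3473b passed in 4 of 7 other settings, DESeq2 among them. For 3 of the 4 members that passed for the haploid lines (d, e and h-5p) RS was at 0. Their pooled haploid levels, 2.02, 4.17 and 4.49 CPM, were below the RS floor of 5.30 CPM, so the RS depth cannot show the pooled haploid lines to be higher. By line, only e in A129-17 and h-5p in A129-2 were above that floor. In A129-2, h-5p stood at 6.95 CPM in pooled counts, at least 1.31-fold higher than the floor. The calls of d, e and h-5p were lost with upper-quartile or total-count scaling. That of d was lost in all 7 other settings, and that of e also without RS replicate 1 or 3. miRNAs with the GC content of miR-3473b had a median log2 difference from RS of 6.13 in the haploid lines and 3.63 in R1. In RS the mesenchymal markers summed to 14011 to 66262 CPM and the blood markers to 1578 to 14923 CPM, and their part was not tested.

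The miRNAs most like miR-3473b over the 9 ESC libraries, by Pearson's r of log2(normalised CPM + 1) among 503 candidates with at least 10 CPM in a group, were miR-690 (r = 0.92), miR-218-5p (0.91) and miR-25-5p (0.91). Those most like miR-3473e were miR-219a-1-3p (0.90), miR-218-5p (0.89) and miR-200b-5p (0.87), and for miR-3473f miR-92a-2-5p (0.92), miR-935 (0.89) and miR-224-5p (0.88). Over all 12 libraries the best match of miR-3473b was miR-5128 (r = 0.94), followed by miR-5099 and miR-1934-5p (0.94 each). For miR-3473e they were miR-92a-2-5p (0.85), miR-200b-5p (0.82) and miR-25-5p (0.82), and for miR-3473f miR-130b-5p (0.85), miR-149-5p (0.83) and miR-671-3p (0.82). The family sum was most like miR-5099 (0.96) over 12 libraries and miR-25-5p (0.93) over the ESC libraries. Among the other members, the best ESC match was miR-7070-5p for miR-3473h-5p (0.87), miR-128-1-5p for miR-3473a (0.85) and miR-7b-5p for miR-3473d (0.83), while miR-3473c and g had too few counts for a match to be described. These are descriptions over libraries that share lines, depth and scaling. The matches of miR-3473f also rest on few counts, at most 18 in any library and 0 in A129-2 and RS. Over all 12 libraries the matches of miR-3473b, miR-3473e and the sum include RS libraries with few counts. These held at most 2, 0 and 3 counts, at a depth that could show only the highest ESC levels. Of the matches named here, miR-25-5p, miR-149-5p, miR-219a-1-3p and miR-92a-2-5p were called higher in A129-17, and the other matches were not called. Over all tested miRNAs 1.32% were called higher. A high r with rows chosen as high in A129-17 favours such miRNAs, so nothing is read from this overlap.

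miRNAs of inflammatory responses, the setting of miR-3473b in macrophages, were counted as a list of 12 that all have a row in the table. In A129-17 against the other lines, 0 of 9 tested rose and 0 fell (edgeR, beside 152 of all tested miRNAs at an unadjusted p under 0.05, and 1.32% called higher and 0.132% lower), with a median log2 difference of -0.13. Against R1, 3 of 9 tested rose and 4 fell in the haploid lines, beside 35.3% higher and 35.3% lower over all tested miRNAs (median -0.25, against 0.33 over all miRNAs). Against RS, 1 of 11 rose and 7 fell in the haploid lines, beside 44.5% higher and 20.8% lower over all tested miRNAs. Their summed level spanned 4846 to 9758 CPM over the haploid libraries, 58536 to 60068 CPM over those of R1 and 56619 to 131790 CPM over those of RS. The defining markers of the labelled cells were present, since ESC markers took 341120 to 646810 CPM in ESC libraries and 69.8 to 4503 CPM in RS, while spermatid markers took 991 to 6186 CPM in ESC libraries and 257966 to 350694 CPM in RS.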

How the data were processed

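The deposited table held raw counts of reads per miRNA for 12 libraries, without normalisation by the authors. Per the submitters' processing notes, Bowtie 0.12.9 and DESeq2 were used, and libraries were gel-selected small RNA with ligated adapters, per the labels' protocols. The genome build, the miRBase release and the handling of reads with several matches are not given in the sources used here. Columns were assigned to samples by title.

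Testing used edgeR 4.0.16 under R 4.3.3 (filterByExpr with minimum count 10 and minimum total 15, TMM, quasi-likelihood F-test, Benjamini-Hochberg adjustment over all tested miRNAs, threshold 0.05). The 9 ESC libraries were fitted together, and all 12 for comparisons with RS, with haploid lines weighted equally. The family sum replaced its members in a second fit. Where a compared group had 0 counts no fitted value is given, and 1 to 3 counts get a ratio of pooled counts with an exact 95% interval. Alternatives were RLE, upper-quartile and total-count scaling, no filter or a minimum count of 50, DESeq2 1.42.0, the replicate number as a block, other samples in the fit, leaving out each library, and a correction for GC content.

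The members and lists were chosen with earlier results of these data known. The rule for named miRNAs was all members, those that share a member's seed and the 3 most like each member and the sum by Pearson's r. After the values were seen, this was shortened to 3 for b, e and f and to the best match for a, d, h-5p and the sum, and miR-292a-5p and the overlap with miRNAs called in A129-17 were added. Ratios of pooled counts between ESC groups, and the count of members above all other libraries on CPM of total counts, were also chosen after seeing the data.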

Additional observations from a re-analysis of the deposited data

Results flagged for a closer look

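On the normalised scale, every library of A129-2 lay below the R1 mean in 2 members, while every library of A129-17 lay above it. This difference between lines was not tested. On CPM of total counts it did not hold for miR-3473e, where A129-2 replicate 1, at 3.23, was above the R1 mean of 2.62. miR-3473e averaged 13.3 ± 5.59 normalised CPM in A129-17 (SD, n = 2) and 1.40 ± 1.33 in A129-2 (n = 2), against 2.41 ± 0.77 in R1 (n = 2), although A129-2 replicate 1, at 2.34, lay between both R1 libraries (1.86 and 2.95). miR-3473f averaged 2.99 ± 0.71 in A129-17, 1.18 ± 0.33 in A129-6 (n = 3) and 0 in A129-2, against 0.05 ± 0.07 in R1, where it rests on 1 count.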

How the results depend on the processing

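The family sum in A129-17 against the other haploid lines kept its direction under all alternatives run, from log2 1.68 (total-count scaling) to 2.22, and from 1.86 to 2.65 when libraries were left out. The sum against R1 was 2.50 when all 12 libraries were fitted and -0.051 relative to miRNAs of like GC content. Against RS it was 3.66 with upper-quartile scaling, 3.60 with total-count scaling and -0.50 relative to like GC content for the haploid lines, and -0.65 on the last footing for R1, which stood at 1.71 and 2.00 with upper-quartile and total-count scaling. Without RS replicate 1, RS had 0 counts and no value could be fitted. Leaving out libraries gave 2.62 to 3.88 for R1 against RS and -0.98 to 0.67 for A129-6 against A129-2. The number of miRNAs called in A129-17 against the other lines was 0 with total-count scaling (edgeR, 164 at an unadjusted p under 0.05), 41 without a filter, 57 with DESeq2, 88 with the replicate block and 5 with all 12 libraries, and 0 to 100 when libraries were left out. The 0 came without A129-6 replicate 2 (128 unadjusted) and the 100 without A129-6 replicate 3. For A129-6 against A129-2 it was 2 with total-count scaling, 41 without a filter, 42 with DESeq2, 8 with all 12 libraries and 0 to 13 when libraries were left out, with 87 to 124 at an unadjusted p under 0.05 in the fits that called at most 1.

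Signs of single members turned for miR-3473d against R1 (0.26 with all 12 libraries), for miR-3473a in R1 against RS (-0.75 with upper-quartile scaling, -0.47 with total-count scaling and -0.11 with the replicate block), and when libraries were left out for miR-3473e against R1 (-0.12 to 0.75), for miR-3473h-5p in A129-17 (-0.32 to 1.07), and in A129-6 against A129-2 for miR-3473a (-1.32 to 0.45), b (-1.05 to 1.47) and e (-0.28 to 1.95). The causes were not tested. Of 21 same-numbered pairs, 2 correlated above 0.1 in their deviations from the group means (range -0.21 to 0.16). In groups of 2 libraries these deviations mirror each other, so some pairs repeat 1 value. The check therefore cannot settle whether the replicate numbers pair the samples. The replicate block gave 88 calls in A129-17 against the other lines, and the main fit 11. With the replicate block the sum differed by 2.13 in A129-17, 1.67 against R1 and -0.27 in A129-6 against A129-2, and by 5.15 and 2.66 for the haploid lines and R1 against RS. The stricter filter left only miR-3473b and e testable in ESC comparisons. Depth limits RS, where 3 counts in a library correspond to 12.3 to 19.3 CPM.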
